A study of Mus musculus with 39 samples.

Results

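The genes of the G1 phase examined here were the 3 D-type cyclins Ccnd1, Ccnd2 and Ccnd3, the 2 E-type cyclins Ccne1 and Ccne2, the kinases Cdk4, Cdk6 and Cdk2, the kinase inhibitor Cdkn1b (p27) and the retinoblastoma gene Rb1. They were taken by symbol, and all 10 were found among the 25219 genes of the table. Their RNA was measured in 39 single cells of the mouse intestinal epithelium, which form 1 group. The mice carried an Lgr5-EGFP-Ires-CreERT2 allele and a Rosa-lsl-tdTomato reporter, so that tamoxifen permanently marked cells using the Lgr5 promoter and their progeny. Tamoxifen was given 24 h before 10 Gy of total body irradiation, and tdTomato-positive, Sca1-negative cells were sorted 48 h after irradiation. No unirradiated cell was in the group. Since the labels do not tell which mouse a cell came from, all cells count as a single biological sample. An SD below describes the spread between cells, p-values are not given, and a cell is named by the number in its label.

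In G1, D-type cyclins bind Cdk4 or Cdk6 and start the phosphorylation of the Rb protein, which releases E2F transcription factors. E-type cyclins then bind Cdk2, continue this phosphorylation and help to start DNA replication. Cdkn1b, and its relative Cdkn1a (p21) downstream of p53, bind these complexes and restrain Cdk2. Crypt stem cells of the intestine divide continually in the undamaged tissue, and ionizing radiation activates the p53 checkpoint in them.

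The D-type cyclins and the kinases are families of related genes, so short coding stretches are shown to display how far the members are alike at a functional site. Sequences were read from the GENCODE M21 transcripts on GRCm38. In the D-type cyclins the capitals mark the 5 codons of the motif (leucine, any residue, cysteine, any residue, glutamate) that binds Rb. In Ccnd1 it lies on the minus strand at chr7:144939667-144939681, in exon 1. In Ccnd2 it lies on the minus strand at chr6:127150753-127150767, in exon 1. In Ccnd3 it lies on the plus strand at chr17:47593661-47593675, in exon 3 of the transcript used.
Ccnd1: caccagCTCCTGTGCTGCGAAgtggag
Ccnd2: atggagCTGCTGTGCTGCGAGgtggac
Ccnd3: atggagCTGCTGTGTTGCGAGggcacc
In the kinases the capitals mark the 7 codons of the PSTAIRE-type helix, the segment through which a kinase contacts its cyclin. In Cdk4 it lies on the plus strand at chr10:127064383-127064403, in Cdk6 on the plus strand at chr5:3344529-3344549 and in Cdk2 on the minus strand at chr10:128703967-128703987, each time in exon 2.
Cdk4: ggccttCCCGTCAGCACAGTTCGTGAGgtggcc
Cdk6: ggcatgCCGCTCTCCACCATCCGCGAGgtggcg
Cdk2: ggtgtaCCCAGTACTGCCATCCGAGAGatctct
Over whole coding transcripts, the longest identical run was 20 bases between Ccnd1 and Ccnd2, 18 bases between Ccne1 and Ccne2 and 20 bases between Cdk4 and Cdk6, against reads of 100 bases. The longest run between any pair of D-type cyclins or of these kinases did not exceed these 20 bases.

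The table gives expression as FPKM, in which fragments are divided by transcript length and by the cell's total, together with an estimated count. The limit for calling a gene detected was 1 FPKM. The cells had a median depth of 3089188 estimated counts on genes (398418 to 3903971), and 2287 to 5779 genes were detected per cell (median 4609). At the median of the totals by which FPKM divides (3629984, a total that also holds reads outside the genes), a single read was worth 0.0477 FPKM for Ccnd2 and 0.205 FPKM for Cdk4, and 3 reads of any gene of the set were worth at most 0.614 FPKM (Cdk4). In the 2 cells with the fewest counts, a call needed fewer reads: Cdk6 was called detected in cell 43 at 1.02 FPKM on 2 estimated counts, and Cdk4 in cell 9 at 1.87 FPKM on 3. Cells 9, 79 and 96 had the fewest detected genes (2287, 2335 and 2988). All 7 epithelial markers were widely detected, with Epcam, Krt8, Krt18 and Cldn7 in 39 of 39 cells, while the 5 fibroblast and 3 endothelial markers were at 0 throughout and the summed immune markers reached at most 2.75 FPKM. Paneth cell RNA was uneven: of 7 markers, Defa24 was detected in 38 cells (median 159 FPKM), Lyz1 in 28 (3.72 FPKM), Ang4 in 13 and Mmp7 in 9. Cells 79 and 96 stood apart with 3 of 4 tuft cell markers each (Il25 was at 0 in all cells). Other cells stood apart by secretory RNA. The summed Paneth markers had a median of 382 FPKM and were highest in cells 56 (13099 FPKM), 63 (4483 FPKM) and 9 (4303 FPKM), and the summed goblet markers had a median of 68.3 FPKM and reached 18000 FPKM in cell 63, with 4 of 5 markers detected, and 11414 FPKM in cell 5, where Tff3 alone made up 11289 FPKM and Muc2 was at 0. Ly6a, which encodes the Sca1 protein of the sort gate, was at 477 FPKM in cell 5 and 509 FPKM in cell 34, which goes against the Sca1-negative label at the level of RNA. It lay near the limit in cells 2 (3.44 FPKM) and 43 (1.26 FPKM).

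Cdk4 and Ccnd2 were the most abundant of the 10 genes, Ccnd1 came next, and the other 7 had a median below 5 FPKM. The median was 373 FPKM for Cdk4, 343 FPKM for Ccnd2, 49.5 FPKM for Ccnd1, 4.68 FPKM for Cdkn1b, 1.04 FPKM for Cdk2 and 0.261 FPKM for Ccne2. The median was 0 for Ccne1, Ccnd3, Cdk6 and Rb1. Between neighbours in this order, only Ccnd2 and Ccnd1 differed within cells by more than 1 SD: the mean difference in log2(FPKM + 1) was 2.81 ± 2.19 (SD, n = 39 cells), with Ccnd2 higher in 37 cells. Cdk4 and Ccnd2 did not differ beyond this spread (-0.42 ± 2.94), with Cdk4 higher in 20 cells and Ccnd2 in 19. Ccnd1, Ccnd2, Cdk4, Cdkn1b and Cdk2 were widely detected, that is, in at least 50% of the cells. These 5 of 10 genes compare with 27.2% of the 13459 genes above 0 in at least 1 cell, and the small number of members allows no reading beyond that. Cdk2 passed by 1 cell (20 of 39), and its share was 48.6% without the 4 cells with Ly6a RNA. At a limit of 5 FPKM both Cdk2 (28.2%) and Cdkn1b (41.0%) fell below 50%. A cell detected a median of 6 of the 10 genes, with a lowest value of 2 and a highest of 8.

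**Figure D1:**
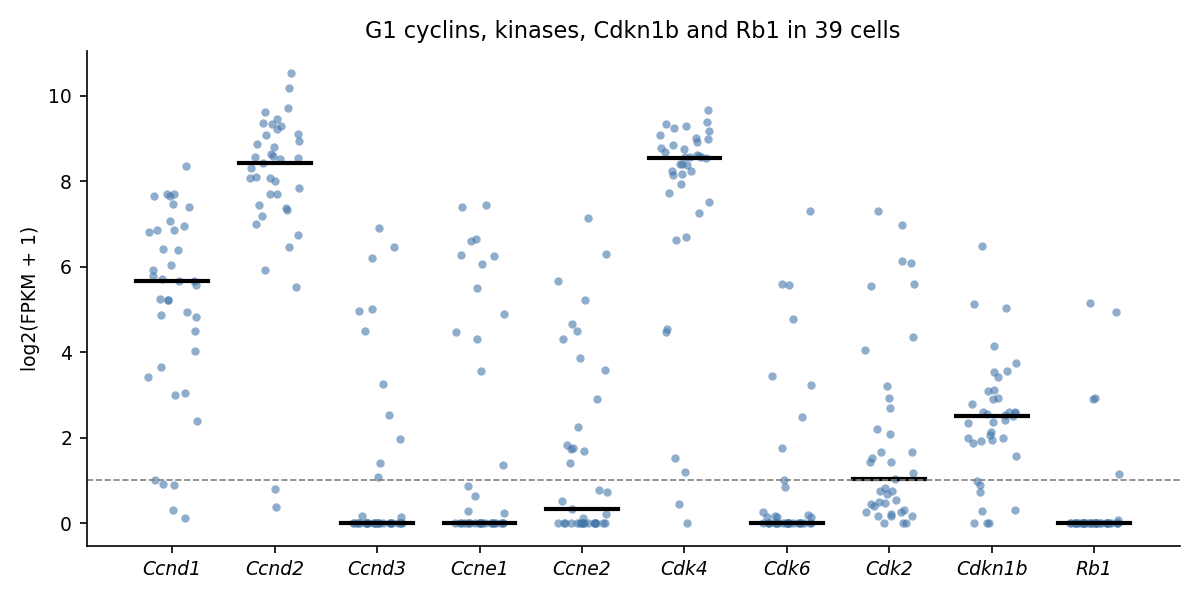
Expression of the 10 genes in each of the 39 cells. Each point is a cell, the y axis is log2(FPKM + 1), the bars are medians and the dashed line is 1 FPKM. Ccnd2 and Cdk4 lie near the top in nearly all cells, while Ccnd3, Ccne1, Cdk6 and Rb1 are at 0 in most cells and reach high values in a few.

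Ccnd2 was the leading D-type cyclin. Its FPKM ranged from 0.307 in cell 96 over a median of 343 to 1472 in cell 16, and it was detected in 37 of 39 cells (94.9%, exact 95% interval 82.7% to 99.4%). The intervals given for shares cover counting error only. In the 37 cells that detected it, the lowest value was 45.1 FPKM, so a wide gap separated them from cells 79 and 96. Ccnd1, a target of Wnt and mitogen signals in many cell types, ranged from 0.0891 FPKM in cell 29 over a median of 49.5 to 326 FPKM in cell 92, and was detected in 35 cells (89.7%, 75.8% to 97.1%). Ccnd1 was thus nearly as widespread as Ccnd2 but at a lower level, and cells 29, 79, 96 and 9 lay below 1 FPKM. Ccnd3 was detected in 11 cells (28.2%, 15.001% to 44.9%), at 0 in 26 cells, and its highest values were 119 FPKM in cell 67, 87.1 FPKM in cell 16 and 72.2 FPKM in cell 48. Cells 67, 16 and 48 held 73.1% of all Ccnd3 FPKM.

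The choice of D-type cyclin was nearly uniform. Ccnd2 had the highest FPKM of the 3 in 37 of 39 cells (94.9%, 82.7% to 99.4%). These include cell 79, where Ccnd2 led at 0.751 FPKM and no D-type cyclin was detected, and cell 48, where Ccnd2 and Ccnd1 were at the same level (206 FPKM each). Ccnd1 was highest in cell 94, narrowly (49.8 against 45.1 FPKM), and in cell 96, where both were below 1 FPKM. The share of Ccnd2 in the summed D-type FPKM had a median of 83.1% and ran from 26.4% to 99.99%, and Ccnd2 made up 82.3% of the sum over all cells against 15.6% for Ccnd1 and 2.05% for Ccnd3. The ratio of Ccnd2 to Ccnd1 had a median of 6.06. It was at least 2 in 31 cells, at least 5 in 20 cells and at least 10 in 14 cells. Ccnd1 with Ccnd2 was the most frequent set (24 cells), followed by all 3 genes (11 cells), Ccnd2 alone (cells 9 and 29) and none (cells 79 and 96). Ccnd3 was therefore never detected without Ccnd1 and Ccnd2, but Ccnd1 and Ccnd2 were detected together in 35 of 39 cells. No cell detected Ccnd1 without Ccnd2, which was itself detected in 37 of 39 cells.

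**Figure D2:**
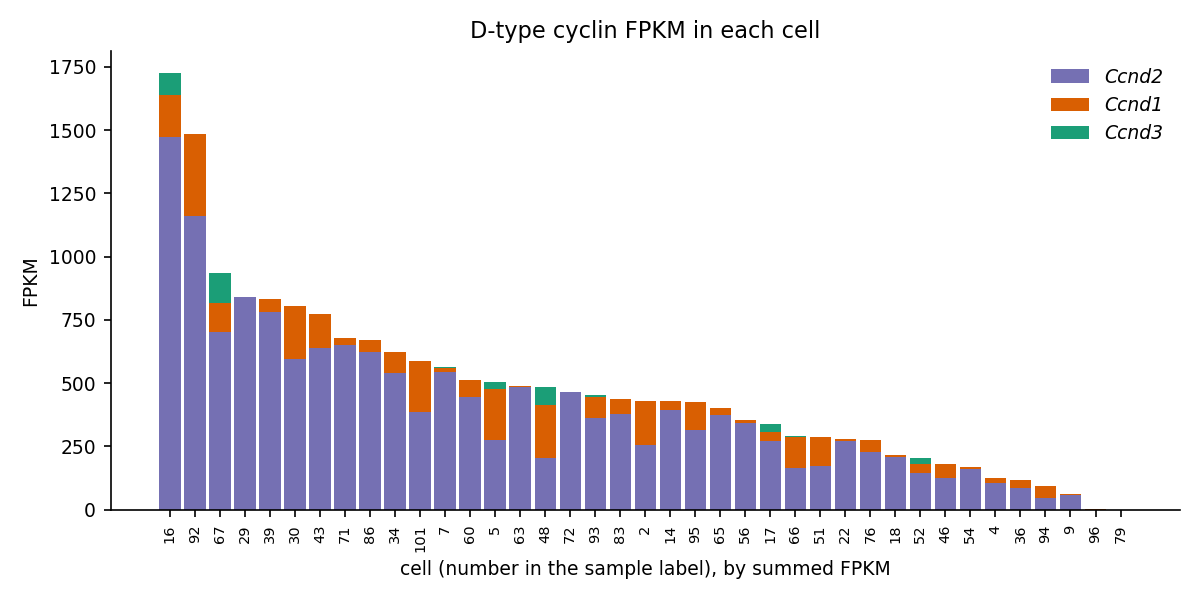
FPKM of Ccnd2, Ccnd1 and Ccnd3 stacked for each of the 39 cells, ordered by their sum. Ccnd2 fills most of nearly every bar, Ccnd3 adds a visible part in a few cells such as 67, 16 and 48, and cells 96 and 79 have a sum near 1 FPKM.

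Both cells without a detected D-type cyclin carried tuft cell RNA. The summed D-type FPKM was 0.979 in cell 79 and 1.16 in cell 96, while the other 37 cells lay between 60.6 and 1727 FPKM. The summed FPKM of 4 tuft markers was 672 in cell 79 and 1394 in cell 96, while the highest value in the other 37 cells was 11.04. Avil, which encodes an actin-binding protein of tuft cells, was at 386 FPKM in cell 79 and 1162 FPKM in cell 96. Cell 79 also held 40997 FPKM of the enterocyte gene Fabp1 and 1013 FPKM of the CDK inhibitor Cdkn1c (p57) and had 1.29 FPKM of Cdk4. Cell 96 held 621 FPKM of Cdk4, among the highest values, and 0.599 FPKM of Fabp1. Both were among the 3 cells with the fewest detected genes (2335 and 2988, against a median of 4609), while cell 96 had 3064032 estimated counts on genes. Both cells were also left out, a choice made after seeing the data. As they were the only cells without detected Ccnd2, its detection in 100% of the other 37 cells followed from that choice. Ccnd2 was highest in 36 of the 37 cells. The part of the tuft and enterocyte RNA and of the low number of detected genes in these low values was not tested.

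**Figure D3:**
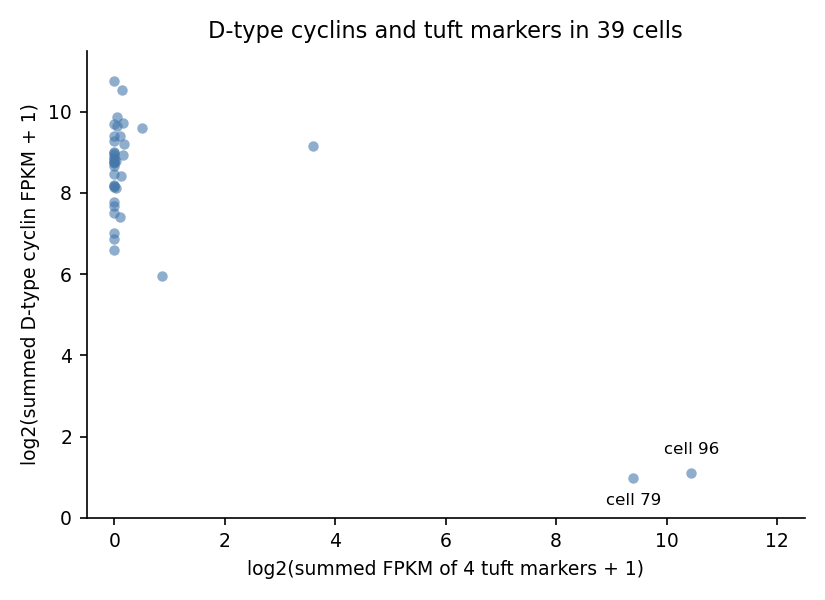
Summed D-type cyclin FPKM (y axis) against the summed FPKM of the tuft markers Dclk1, Trpm5, Avil and Il25 (x axis), both as log2(sum + 1), for 39 cells. Cells 79 and 96 are apart at the lower right, and the other 37 cells lie between 60.6 and 1727 FPKM of D-type cyclins.

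The E-type cyclins were present in part of the cells, mostly the same ones. Ccne1 was detected in 13 cells (33.3%, 19.1% to 50.2%), at 0 in 22 cells, and reached 174 FPKM in cell 86 and 168 FPKM in cell 72. Ccne2 was detected in 16 cells (41.0%, 25.6% to 57.9%), at 0 in 17 cells, and reached 141 FPKM in cell 86 and 77.0 FPKM in cell 76. Where it was detected, Ccne1 was the more abundant, with a median of 65.6 FPKM against 12.3 FPKM for Ccne2. Both were detected in 11 cells, Ccne2 alone in 5, Ccne1 alone in 2 (among them cell 72), and neither in 21 cells. Of the 13 cells with Ccne1, 11 thus also had Ccne2, against 5 of the 26 cells without Ccne1. Within cells the 2 genes did not differ beyond the spread (0.29 ± 2.29 on the log2 scale, Ccne1 minus Ccne2). Ccne2 was higher in 14 cells, Ccne1 in 11, and both were at 0 in 14. However, neither gene was detected in cells 9, 16, 63, 65, 83 and 96, where Ccne2 was higher, or in cell 71, where Ccne1 was higher. The larger number of cells for Ccne2 thus rests on values below the limit.

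Cdk4 was the dominant kinase. It ranged from 0 in cell 67 over a median of 373 FPKM to 808 FPKM in cell 65 and was detected in 37 of 39 cells (94.9%, 82.7% to 99.4%). Its values fell into a high range and a few low cells: cells 5, 9, 48, 67, 72 and 79 lay at or below 22.4 FPKM and the other 33 cells at 97.8 FPKM or more. Cdk6, the other partner of the D-type cyclins, was detected in 9 cells (23.1%, 11.1% to 39.3%; cell 43 on 2 estimated counts), at 0 in 23, and cell 7 alone held 51.4% of all Cdk6 FPKM (157 FPKM). The mean within-cell difference of Cdk4 minus Cdk6 was 6.55 ± 3.37 on the log2(FPKM + 1) scale, with Cdk4 higher in 37 cells. The 2 cells with more Cdk6 were the cells without detected Cdk4. Cell 67 had 0 FPKM of Cdk4, 46.4 FPKM of Cdk6 and 119 FPKM of Ccnd3, and cell 48 had 0.365 FPKM of Cdk4, 2.39 FPKM of Cdk6 and 72.2 FPKM of Ccnd3. Thus 30 cells detected Cdk4 only, 7 detected both, 2 detected Cdk6 only, and 0 of 39 detected neither, which allows a share of up to 9.03%.

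The gene model behind the Cdk6 value was short. The table used 2470 bases for Cdk6, whereas the longest coding transcript in GENCODE M21 has 11525 bases and the RefSeq gene ends 8783 bases further downstream. For Cdk4 the table used 1346 bases and the longest coding transcript has 2053, and for Cdkn1b the lengths were 2405 and 4552 bases. For the other 7 genes the model of the table had between 91.2% and 107% of the longest coding transcript. Reads from the unlisted part of Cdk6 would not enter its value, and their number is not known from the table.

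**Figure D4:**
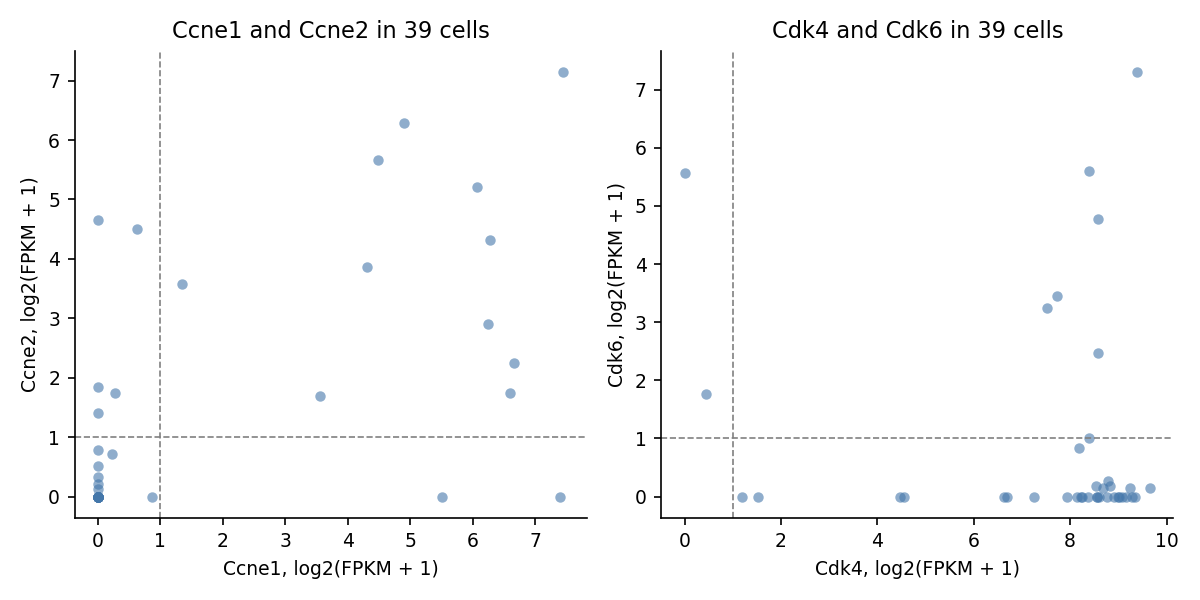
Ccne1 against Ccne2 (left) and Cdk4 against Cdk6 (right), both as log2(FPKM + 1), for 39 cells, with dashed lines at 1 FPKM. In the left panel 11 cells lie above both lines and 21 below both, and in the right panel 7 lie above both and only cells 48 and 67 are above the Cdk6 line while below the Cdk4 line.

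Cdk2, the partner of the E-type cyclins, had some reads in most cells but reached the limit in fewer. It was above 0 in 36 cells and at 1 FPKM or more in 20 (51.3%, 34.8% to 67.6%), with a median of 1.04 FPKM and highest values of 158 FPKM in cell 56, the cell with the most Paneth RNA, and 125 FPKM in cell 29. Cdk4 exceeded Cdk2 by a mean of 5.55 ± 2.98 on the log2(FPKM + 1) scale and was higher in 37 cells. All combinations with its cyclins occurred in like numbers: 9 cells had an E-type cyclin and Cdk2, 9 had an E-type cyclin without Cdk2, 11 had Cdk2 without an E-type cyclin and 10 had neither. Ccnd2 and Cdk4, each detected in 37 cells, were detected together in 35 cells, and Ccnd1, Ccnd2 and Cdk4 in 33 cells (84.6%, 69.5% to 94.1%).

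Cdkn1b was widespread and low. It was detected in 31 cells (79.5%, 63.5% to 90.7%), but in 41.0% of the cells at a limit of 5 FPKM, with a median of 4.68 FPKM, was at 0 in cells 5, 43 and 48, and was highest in cell 9 (89.0 FPKM). Cell 9 was also the shallowest library, with 398418 estimated counts, of which 255 were on Cdkn1b, and 33.4% of the total behind its FPKM lay on genes. It was also among the 3 cells with the highest Paneth sum, of which cells 56 and 63 had 2.77 and 1.95 FPKM of Cdkn1b. The part of the shallow library or of Paneth RNA in the Cdkn1b value of cell 9 was not tested. The next values were 33.7 FPKM in cell 72 and 31.6 FPKM in cell 92. The summed D-type cyclins exceeded Cdkn1b by a mean of 5.85 ± 2.54 on the log2(FPKM + 1) scale and were higher in 36 of 39 cells. Cdkn1a had a median of 26.1 FPKM and was detected in 29 cells, and it exceeded Cdkn1b in 25 cells while Cdkn1b exceeded it in 14. The mean difference of Cdkn1b minus Cdkn1a was -1.84 ± 3.38, which is within the spread over cells.

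Rb1, the substrate of these kinases, was the least detected gene of the set. It was at 1 FPKM or more in 5 cells (12.8%, 4.30% to 27.4%), at 0 in 33 cells, and cells 14 (34.4 FPKM) and 94 (29.8 FPKM) held most of its RNA. All 5 cells with Rb1 also detected Ccnd1, Ccnd2, Cdk4 and Cdkn1b, which were detected in 35, 37, 37 and 31 of all 39 cells. The related pocket proteins were Rbl1 (p107), detected in 13 cells with a highest value of 110 FPKM in cell 72, and Rbl2 (p130), detected in 4 cells with the highest value in cell 79.

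The rest of the pathway was followed through 5 lists. The share of widely detected genes in each is to be read beside the 27.2% over all expressed genes. Of 6 other CDK inhibitors, only Cdkn1a was widely detected. Cdkn1c and Cdkn2d were detected in 3 cells each and Cdkn2c in 2, and Cdkn2a and Cdkn2b were below 1 FPKM in all 39. Of 12 pocket proteins, E2F and DP factors, 2 were widely detected: Tfdp1, the partner of E2F proteins (median 62.5 FPKM, 33 cells), and E2f4, mostly a repressor (4.50 FPKM, 26 cells). Tfdp2 was detected in 14 cells. Of the activators, E2f2 and E2f3 were detected in 10 cells each (up to 30.7 and 17.8 FPKM) and E2f1 in 1 cell. Of 9 genes for activation and turnover of the complexes, 6 were widely detected, led by Skp1a (243 FPKM, 39 cells), Cks1b (87.3 FPKM, 32 cells) and Cul1 (19.1 FPKM, 32 cells), all parts of the ligase that degrades Cdkn1b. Skp2, the subunit that recognises Cdkn1b, was detected in 8 cells. Of 20 S-phase genes 17 were widely detected, with the highest medians for Pcna (212 FPKM), Rrm2 (132 FPKM) and Mcm7 (116 FPKM), and Ccna2 was detected in 30 cells. Of 8 mitotic genes 7 were widely detected, with the highest medians for Ccnb2 (74.5 FPKM), Cdk1 (35.98 FPKM) and Top2a (30.1 FPKM), and Mki67 was detected in 27 cells.

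Joint detection with these genes is given as counts, since most members were sparse. The 7 members with at least 5 cells on each side were set against 12 pathway genes. Over these 84 pairs, the share of cells detecting the pathway gene differed between cells with and without the member by a median of 13.9 percentage points in size, with a range from -28.6 to 45.3. The pairs named next were chosen after their values were seen, mostly from the wider differences. Of the 84 pairs, 26 differed by 20 points or more, and not all of these are named. The widest was that of Skp2, detected in 3 of 5 cells with Rb1 and in 5 of 34 without. Mki67 was detected in 5 of 5 cells with Rb1 and in 22 of 34 without, and in 17 of 20 cells with Cdk2 and in 10 of 19 without. Rbl1, itself an E2F target in many cells, was detected in 7 of 13 cells with Ccne1 and in 6 of 26 cells without it. The replication licensing gene Cdc6 was detected in 7 of 13 cells with Ccne1 against 7 of 26 without, and in 8 of 16 cells with Ccne2 against 6 of 23 without. Cdt1 was detected in 13 of 16 cells with Ccne2 and in 10 of 23 without. E2f4 was detected in 14 of 16 cells with Ccne2 and in 12 of 23 without. Skp2 was detected in 5 of 13 cells with Ccne1 and in 3 of 26 without. Ccnd3 and Cdk6 were both detected in 5 cells, that is, in 5 of 9 cells with Cdk6 and in 6 of 30 cells without it. Skp2 was detected in 0 of the 11 cells with Ccnd3 and in 8 of the other 28. Other pairs differed less: Mki67 was detected in 10 of 13 cells with Ccne1 and in 17 of 26 without, Rbl1 in 3 of 11 cells with Ccnd3 and in 10 of 28 without, and Skp2 in 4 of 16 cells with Ccne2 and in 4 of 23 without. Cdkn1a was detected in 9 of 9 cells with Cdk6 and in 20 of 30 without it. All these counts share the detection rate of each cell and were not tested.

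Among the 5 widely detected members, Spearman correlations over the 39 cells ran from -0.37 to 0.30. All cells were sequenced from 1 library pool and differ in depth and in the number of genes detected, and the correlations are descriptions. For comparison, the median over all pairs of 3666 widely detected genes was 0.07 (5th to 95th percentile -0.22 to 0.35). Ccnd1 and Ccnd2 had a rho of 0.30 (Pearson's r 0.48), which lies inside that range, and a rho of 0.20 without cells 9 and 79. Ccnd1 and Cdk2 had a rho of -0.37 (r -0.37, and -0.26 without the 2 cells farthest from the median of Ccnd1). Cdk4 and Cdkn1b had a rho of -0.33 (r -0.28), and Ccnd1 and Cdk4 a rho of -0.29 while r was 0.07. The last rho was -0.46 without cells 9 and 79. These 3 negative values lie below the 5th percentile of all pairs. Without cells 9 and 79 that percentile was -0.26, and the rho of Cdk4 and Cdkn1b was -0.25 and so no longer below it.

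Cdk4 and Ccnd1 had unlike correlations with Mki67, Ccna2 and Cdkn1a. Cdk4 had a rho of 0.48 with Mki67, 0.48 with Ccna2 and -0.45 with Cdkn1a, and Ccnd1 had a rho of -0.25 with Mki67, -0.01 with Ccna2 and 0.37 with Cdkn1a. The medians over widely detected genes were 0.13, 0.13 and -0.09. Adjusted for the number of genes detected, Cdk4 had 0.40 with Mki67, 0.41 with Ccna2 and -0.38 with Cdkn1a. Ccnd1 then had -0.44, -0.10 and 0.48. With the mean of the 20 S-phase genes, Cdk4 had a rho of 0.30 (adjusted 0.11) and Ccnd1 0.03 (-0.15), beside a median of 0.17. Ccne1 and Ccne2 had 0.45 and 0.52 with that mean. With the mean of the 8 mitotic genes, Cdk4 had 0.52 (adjusted 0.41) and Ccnd1 -0.21 (-0.39), beside a median of 0.14. The difference between Cdk4 and Ccnd1 was not tested. Ccnd2 had a rho of -0.07 with Mki67, -0.07 with Ccna2 and 0.01 with Cdkn1a. Without cells 9 and 79 its rho was -0.19 with Mki67 and -0.20 with Ccna2, whereas r over all cells was 0.13 and 0.18.

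The genes whose values ran most like those of each widely detected member were as follows, by Spearman's rho over 39 cells among 3661 genes. For Ccnd1 they were 2700089E24Rik (0.68), Ergic3 (0.64) and S100a10 (0.63). For Ccnd2 they were Dus1l (0.64), Ap2m1 (0.61) and Atg5 (0.56). For Cdk4 they were Cbx5 (0.61), Dhx32 (0.59) and Eif4g2 (0.59). For Cdk2 they were Nsl1 (0.54), Slc29a1 (0.54) and Loxl2 (0.52), and for Cdkn1b Reep6 (0.52), Rnf44 (0.49) and Adam10 (0.47). These are the highest of many values, and all share the depth of the same libraries. Adjusted for the number of genes detected, 5 of them left the first 3 places: Dhx32 fell to place 15 (0.48), Adam10 to 10, Rnf44 to 9, Ergic3 to 8 and Atg5 to 6.

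The cells were also set into 2 groups by hierarchical clustering on intestinal stem cell (ISC) signature genes, since the study also grouped its cells by such genes, with Cdk6 left out of the signature because it belongs to the set described here. The 22 cells with the higher signature mean are called ISC-high and the other 17 ISC-low. The members' differences are descriptions, because the groups were made from the same cells. None of the 10 genes differed between the groups by more than the pooled SD over cells. The differences of Cdk4 and Ccne1 were the widest. Cdk4 differed by 2.05 in log2(FPKM + 1), with a pooled SD of 2.37, and by 1.39 without cells 9 and 79. It was detected in 22 of 22 ISC-high cells (22.4 to 808 FPKM) and in 15 of 17 ISC-low cells (0 to 621 FPKM). The ISC-high cells were more alike for it, with an SD of 1.08 against 3.38. Ccne1 differed by 1.98 (pooled SD 2.59, and 1.88 without cells 9 and 79), with detection in 10 of 22 against 3 of 17 cells, and Ccne2 by 1.26 (pooled SD 2.05), with 11 of 22 against 5 of 17. Ccnd2 differed by 0.86 (pooled SD 2.03) and Ccnd1 by 0.28 (pooled SD 2.28). Without cells 9 and 79, the difference of Ccnd2 was 0.32 and that of Ccnd1 turned to -0.30. Ccnd1 was detected in all 22 ISC-high cells and in 13 of 17 ISC-low cells, yet its median was 41.7 FPKM in ISC-high and 84.5 FPKM in ISC-low cells. Ccnd3, Cdk2 and Rb1 had lower means in the ISC-high cells (-0.66, -0.64 and -0.16).

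These differences have to be set beside all genes. Over the 3666 widely detected genes the median difference was 0.67, with 2885 genes higher in the ISC-high cells, and over the 5 widely detected members it was 0.32, with 4 higher. The ISC-high cells detected a median of 4664 genes and the ISC-low cells 4073. The part of this gap in the members' differences was not tested. The ISC-low group also held cells 9, 79 and 96, and cells 56 and 63, which had the highest Paneth sums. It held cells 5 and 63, which had the highest goblet sums, and cells 2, 5, 34 and 43, the cells with Ly6a RNA. The part of these cells in the members' differences was not tested. Mki67 was detected in 18 of 22 ISC-high and 9 of 17 ISC-low cells.

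**Figure D5:**
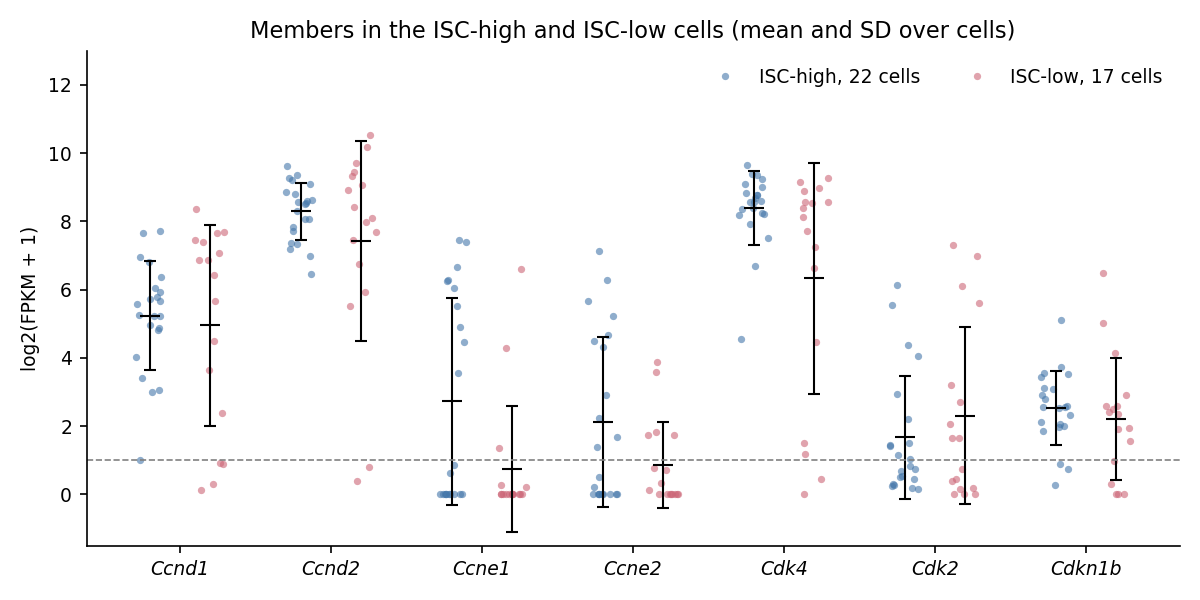
log2(FPKM + 1) of 7 members in the 22 ISC-high and 17 ISC-low cells. Points are cells, horizontal marks and whiskers are the mean and SD over cells, and the dashed line is 1 FPKM. The groups overlap for all 7 genes, and the cells below 1 FPKM of Ccnd1, Ccnd2 or Cdk4 are all ISC-low.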

How the data were processed

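FCM-sorted cells were captured on a Fluidigm C1 chip and inspected under the microscope for single occupancy, cDNA was made with a SMARTer kit, and Nextera XT libraries of 39 cells were pooled and sequenced as paired-end reads of 100 bases. The authors deposited, for each of 25219 genes and each cell, an FPKM value and an estimated count that was not normalized. Of the estimated counts above 0, 18.4% were not whole numbers. The submitters' processing notes name TopHat2 2.0.14, bcl2fastq 1.8.4 and the mouse build mm10 (GRCm38), with no role given. The table holds RefSeq gene models, and FPKM divides by the length of these models and by a total per cell, of which 33.4% to 95.2% lay on genes. No molecular identifiers are named, so counts do not stand for molecules, and a transcript lost before amplification appears as 0. No doublets were called.

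FPKM was used as deposited, and log values are log2(FPKM + 1), with a pseudocount of 1 FPKM. Detection was 1 FPKM or more, with exact Clopper-Pearson 95% intervals. Widely detected means in at least 50% of the cells. Groups came from complete linkage on Euclidean distance of log2(FPKM + 1) over 97 ISC signature genes. Linkage and distance were chosen here, as the study's are not given in the sources used here. With 1 group and no animal named, no test was run. The group difference, the clustering into groups, the rank correlation and the adjustment for a technical measure were tested on simulated data. The other steps were not. Named were all members, for each widely detected member the 3 genes with the highest rho, the 3 genes with the highest median of each pathway list (for the CDK inhibitors with medians of 0, those detected), and Cdkn1a, Rbl1, Rbl2, E2f1, Skp2, Ccna2 and Mki67. Marker genes, Cdkn1c, Cdkn2a, Cdkn2b, E2f2, E2f3, Cdc6 and Cdt1 were named after their values were seen. The members and lists were chosen with earlier results of these data known. Alternatives were other detection limits, a count minimum of 10, a pseudocount of 0.1 FPKM, cells rescaled to the same sum, thinning to 600000 reads (which left out 1 cell), other groupings, and leaving out cells. Scripts were run with scipy 1.17.1, numpy 2.4.6, pandas 2.3.3 and matplotlib 3.10.9 under Python 3.11.15.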

Additional observations from a re-analysis of the deposited data

How the results depend on the processing

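Detection depended on the limit most for genes with low values. Counting any value above 0 FPKM, Ccnd1 and Ccnd2 were present in 100% of cells, Cdk2 and Cdkn1b in 92.31% and Cdk6 in 41.03%. At 5 FPKM or more, Cdk2 was present in 28.21%, Cdkn1b in 41.03%, Ccne2 in 25.64% (41.0% at 1 FPKM) and Ccnd3 in 17.95% (28.2% at 1 FPKM). Thinned to 600000 reads in the 38 cells that allowed it, the expected share with a Cdk2 read fell from 92.1% to 68.47%. With a pseudocount of 0.1 FPKM the mean log2 level was -1.25 for Ccnd3, -1.44 for Cdk6 and -2.47 for Rb1, which follows from their many zeros, and r of Cdk4 and Cdkn1b was -0.098. Ccnd2 was highest of the D-type cyclins by at least 2-fold in 79.49% of cells. Without cells 79 and 96 Ccnd2 was detected in 100% of cells, which follows from their being the only cells without detected Ccnd2. Without the 4 cells with Ly6a RNA, a choice also made after seeing the data, Cdk2 was detected in 48.6% of 35 cells and so fell below the 50% for widely detected genes, and Ccnd2 was highest in 33 of 35. In all, 211 of 226 recomputed values stayed close to the value given. Close meant within the 95% interval for shares and within 1 SD over cells for levels and differences. For correlations it meant within 0.167, and for the size of a group within 1.5 times. The limit of 1 SD is wide, so this count says little about stability. For example, the Ccnd1 difference between ISC-high and ISC-low cells counted as close at -0.30 against 0.28. The differences beyond the spread were Cdk4 minus Cdk6, Cdk4 minus Cdk2, Ccnd2 minus Ccnd1 and the D-type cyclins minus Cdkn1b, and none of these changed sign. Ward linkage placed 37 of 39 cells, and a pseudocount of 0.1 FPKM 35 of 39 cells, in the same group. Rescaling the cells also kept 35 of 39 but gave groups of 26 and 13 cells. The difference of Ccnd1 between the groups was 0.04 with Ward linkage (0.28 as given), and that of Cdkn1b 0.06 after rescaling and 0.65 without cells 9 and 79 (0.32 as given). No paired analysis was possible because there is 1 group. With 39 cells of unnamed animals, variation between mice cannot be told apart from variation between cells.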
